A study of Mus musculus with 8 samples.

Results

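The regions described here are the 1196 SMAD4 peaks inside gene bodies that were called after BMP9/10 stimulation of MS1 cells and had no counterpart without added ligand. A stimulated peak was taken when it shared not even 1 bp with an unstimulated peak, its summit lay inside a protein-coding gene, and that summit was more than 1 kb from the ends of every protein-coding gene. These peaks were 27.6% of all 4333 stimulated peaks (exact binomial 95% interval 26.3 to 29.0) and 36.9% (35.2 to 38.5) of the 3245 nuclear peaks found in the stimulated list only. They were 76.1% (73.9 to 78.2) of the 1571 stimulated peaks that lay inside gene bodies by the same distances. All such intervals cover counting error within pooled libraries only. The regions were chosen by the authors' peak calls in both lists, so the absence of an unstimulated call is a property of the selection and not a finding.

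The cell line, MS1, is of mouse endothelial origin and was established from islets of the pancreas. The cells were starved of serum for 24 h. They then received recombinant BMP9/10 at 1 ng/mL or, as the unstimulated control, fresh medium. Each condition had 2 SMAD4 immunoprecipitates (IP) and 2 inputs, 8 libraries in 4 groups, and no genetic change is given in the description or characteristics fields of any group. The titles of both stimulated IP libraries contain the letters KD, which the labels leave unexplained, so all stimulated values are those of the libraries labelled stimulated SMAD4 IP. The authors merged the libraries of a condition before calling peaks, which left 41044888 stimulated and 52971023 unstimulated IP tags, per the file headers. No peak therefore has a value per library, an error between replicates or a test between the conditions. Binding data hold no RNA levels, so the label endothelial was not tested by expression.

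BMP9 and BMP10 signal in endothelium through the receptor ALK1 with BMPR2 and the co-receptor endoglin. The receptors phosphorylate SMAD1 and SMAD5, which enter the nucleus with SMAD4, the subunit that this pathway shares with the TGF-beta pathway. SMAD proteins contact short DNA elements, above all the SMAD box CAGAC and, for the BMP SMADs, GC-rich elements such as GGCGCC and GGAGCC. Sites inside genes can be enhancers in introns, internal start sites of shorter transcripts, or places where a neighbouring gene is regulated. Exon positions were not used here, so the peaks are placed within genes and not within introns or exons.

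Some summits fell on sequence that RefSeq annotates as the start of a transcript inside a longer gene. The windows around such starts show the DNA around the summits of a small part of the peaks. The summits of 68 of the 1196 peaks lay in such a window (250 bases before to 50 after a start), and for 59 of the 68 it was a start of the gene that holds the peak. The 5 windows printed first belong to the strongest such peak (Rnf144b), to the next strongest (Gata3, Gse1), to Septin9, which with Frmd4a held the most peaks of any gene, and to Egfl7, an endothelial gene. Each reads 5′ to 3′ on the strand of its transcript in RefSeq's mm10 assembly (GRCm38.p6), and capitals mark the SMAD box and the elements GGCGCC and GGAGCC on either strand. A window can reach past the called peak, so a marked motif need not lie under it. Starts are called internal by position only, and whether one is the main start of its gene was not examined.
Rnf144b, chr13:47193753-47194052, plus strand: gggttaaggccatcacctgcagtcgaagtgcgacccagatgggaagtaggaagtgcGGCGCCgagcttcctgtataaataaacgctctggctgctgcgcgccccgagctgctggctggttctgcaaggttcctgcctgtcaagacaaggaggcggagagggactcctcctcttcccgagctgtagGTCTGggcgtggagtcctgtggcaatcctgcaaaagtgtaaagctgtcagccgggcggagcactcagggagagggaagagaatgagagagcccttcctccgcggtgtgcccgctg
Gata3, chr2:9878551-9878850, minus strand: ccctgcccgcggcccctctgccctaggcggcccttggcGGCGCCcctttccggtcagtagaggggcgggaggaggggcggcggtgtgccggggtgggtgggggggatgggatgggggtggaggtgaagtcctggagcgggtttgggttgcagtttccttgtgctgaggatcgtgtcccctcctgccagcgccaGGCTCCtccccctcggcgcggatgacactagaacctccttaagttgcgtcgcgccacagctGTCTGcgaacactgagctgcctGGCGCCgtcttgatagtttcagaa
Gse1, chr8:120537159-120537458, plus strand: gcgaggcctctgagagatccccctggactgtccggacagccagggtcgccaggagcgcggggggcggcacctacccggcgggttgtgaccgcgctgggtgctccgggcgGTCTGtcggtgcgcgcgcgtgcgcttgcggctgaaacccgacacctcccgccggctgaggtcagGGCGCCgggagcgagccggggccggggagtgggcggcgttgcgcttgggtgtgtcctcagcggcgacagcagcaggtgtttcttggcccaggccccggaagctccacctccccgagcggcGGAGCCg
Septin9, chr11:117265996-117266295, plus strand: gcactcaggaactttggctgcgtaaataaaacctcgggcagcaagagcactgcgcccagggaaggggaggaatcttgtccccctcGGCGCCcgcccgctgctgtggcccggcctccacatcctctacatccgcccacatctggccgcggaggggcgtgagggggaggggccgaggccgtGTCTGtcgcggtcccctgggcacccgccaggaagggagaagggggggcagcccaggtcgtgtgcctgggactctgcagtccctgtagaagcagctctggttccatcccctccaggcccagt
Egfl7, chr2:26583615-26583914, plus strand: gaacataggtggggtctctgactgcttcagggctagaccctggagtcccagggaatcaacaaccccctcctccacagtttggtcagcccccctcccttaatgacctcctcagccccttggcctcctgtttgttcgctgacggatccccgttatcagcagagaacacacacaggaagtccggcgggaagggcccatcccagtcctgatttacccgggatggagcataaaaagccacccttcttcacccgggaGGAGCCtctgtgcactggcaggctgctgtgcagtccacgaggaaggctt

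The Rnf144b peak (chromosome 13, 47193626 to 47193945) had a pileup of 39 tags over its summit and a fold enrichment of 12.5, which the authors' caller takes as pileup over local background with 1 added to each. Rnf144b encodes an E3 ubiquitin ligase, and the summit lay 156 bases before the annotated start and 54.1 kb from the nearest gene end. The window holds 1 SMAD box and 1 GGCGCC element. In Gata3, which encodes a zinc-finger transcription factor, the peak (chromosome 2, 9878456 to 9878664) had 27 tags and a fold enrichment of 7.78, 35 bases past the start. That window had 2 GGCGCC elements, 1 SMAD box and 1 GGAGCC element. The Gse1 peak (chromosome 8, 120537296 to 120537543) also had 27 tags, with a fold enrichment of 7.57, and lay 44 bases past a start in a window of 74.7% GC. Septin9, whose product forms cytoskeletal filaments, had 23 tags and 4.44 at a start 66.6 kb inside the gene. In Egfl7, which encodes a protein secreted by endothelial cells, 36 tags gave a fold enrichment of only 3.59 (chromosome 2, 26583759 to 26583876). Its window held no SMAD box and no GGCGCC, and 1 GGAGCC element.

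The 76 windows under these summits, some of which overlap each other, were rich in GC. Their median GC content was 65.2% (interquartile range 57.6 to 71), against 52.7% over all 32817 start windows. The GGCGCC element was present in 36 of the 76 (47.4%, 35.8 to 59.2), against 11.9% of all windows. The SMAD box was in 43 (56.6%, 44.7 to 67.9), against 49.6% of all windows, and GGAGCC on either strand in 38 (50%, 38.3 to 61.7), against 30.8%. Among windows of at least 60% GC, 31 of 46 under these summits (67.4%) and 30.9% of all had GGCGCC. For the SMAD box the shares in that class were 47.8% under these summits and 44.5% of all, and for GGAGCC they were 56.5% and 53.0%. Of these motifs only GGCGCC contains a CpG (a C followed by a G). The median number of CpG per window was 23 under these summits, 28 under stimulated-only summits at gene ends and 7 over all windows. The GC class does not match windows for CpG, and its part in the GGCGCC shares was not tested. The 344 windows under stimulated-only summits at gene ends gave 51.5% for GGCGCC, 54.7% for the SMAD box and a median GC of 66.2%. For GGCGCC the gene-end share lay inside the interval of the share at internal starts, and the difference was not tested. Under shared summits GGCGCC was in 52.9% of 87 windows at gene ends and in 3 of 10 inside gene bodies. A match of these letters is a description and does not show a site. It was counted anywhere in a window and may lie outside the peak. The motif search was limited to start windows.

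**Figure D1:**
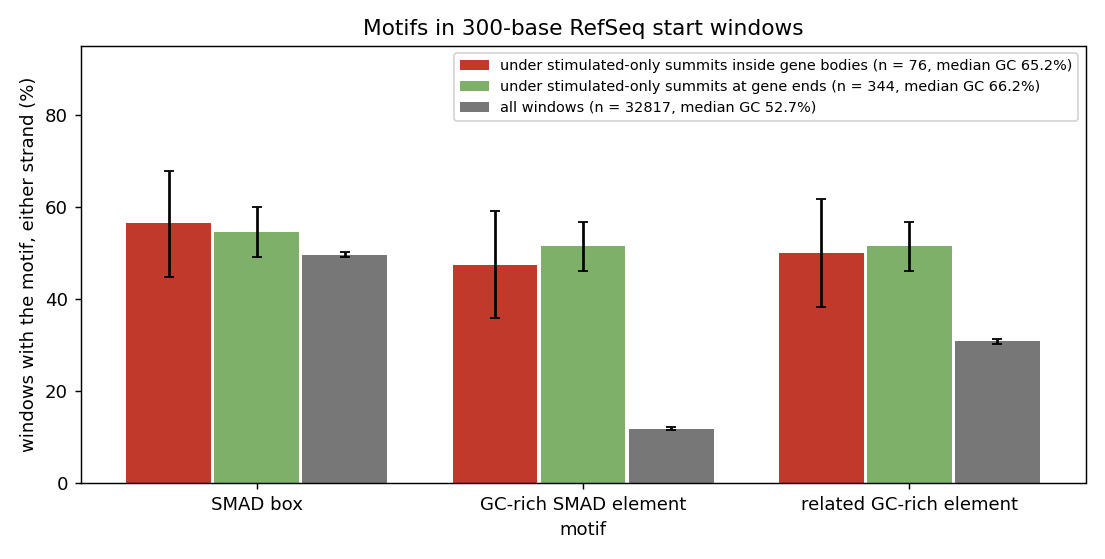
Share of RefSeq start windows of 300 bases that hold each motif on either strand (y axis, percent; x axis, the SMAD box, GGCGCC as the GC-rich element and GGAGCC as the related one), for windows under stimulated-only summits inside gene bodies, under those at gene ends, and all windows. Error bars are exact binomial 95% intervals. For GGCGCC the first group had 47.4%, the gene-end group 51.5% and all windows 11.9%.

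The regions were small, and nearly all stood below 10-fold. Their median fold enrichment was 4.22 (interquartile range 3.57 to 5.07, range 2.31 to 15.3) and their median width 177.5 bp (134 to 237). The median pileup was 26.5 tags (21 to 32), or 0.646 per 1000000 IP tags. The 375 shared peaks inside gene bodies stood at a median fold enrichment of 5.63, a width of 304 bp and 1.02 tags per 1000000, a difference that the selection used and that carries no test. At least 5-fold enrichment was reached by 344 peaks (28.8%, 26.2 to 31.4), at least 10-fold by 4, and 342 (28.6%) were narrower than the 140 bp tags. The local background stood at the lowest value, that of the whole genome, for 54 peaks (4.52%).

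The unstimulated libraries were the deeper ones, and pileups can be set side by side per tag. The lowest pileup among nuclear peaks of the unstimulated list was 0.264 per 1000000 tags and the median 0.698, and 477 of the 1196 (39.9%) reached that median in the stimulated libraries. The unstimulated list gives called peaks only, so the unstimulated level at these sites was not measured here and need not be 0. The part of depth in the absent calls was not tested.

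The strongest of these peaks lay in genes of varied function. Marchf1, which encodes a ubiquitin ligase that lowers MHC class II on the cell surface, led with a fold enrichment of 15.3 from 48 tags (chromosome 8, 66312611 to 66312767), 160 kb from the nearest gene end. Rnf144b followed with 12.5. Dpp9, which encodes a dipeptidyl peptidase, and Lor, which encodes loricrin of the epidermal barrier, had 11.3 each from 35 tags. The Dpp9 peak was 156 bp wide (chromosome 17, 56199997 to 56200152). At Lor it spanned 1537 bp (chromosome 3, 92080357 to 92081893), the widest of the set, inside a gene of 2.87 kb. These 4 were the peaks above 10-fold, and for each of them the local background was at the genome-wide value.

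Vwf, which encodes von Willebrand factor, came next with 9.70 from 30 tags in 129 bp (chromosome 6, 125618031 to 125618159). Ppp1r9a, which encodes the actin-binding protein neurabin, had 9.5, and Plxdc2 had 9.39 in 121 bp. Ptprb, which encodes the endothelial phosphatase VE-PTP that acts on TIE2 and VE-cadherin, had 9.27 from 37 tags in 285 bp (chromosome 10, 116297884 to 116298168), 22.6 kb from the gene end. Further peaks of the first 15 lay in Aopep (9.19), Zdhhc11 (9.08), Exoc3l2 (9.01), Bicral (8.84), Nfatc3 (8.76) and Ndst3 (8.75). Nfatc3 encodes a calcium-regulated transcription factor and Ndst3 an enzyme of heparan sulfate synthesis. Of the 15, only the peaks in Ptprb, Exoc3l2 and Bicral lay within 100 kb of any unstimulated peak (30.8, 24.7 and 16.4 kb away). Peaks narrower than the tags, as at Vwf, Plxdc2 and Nfatc3, stood beside broader ones, and what narrowness means was not tested.

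**Figure D2:**
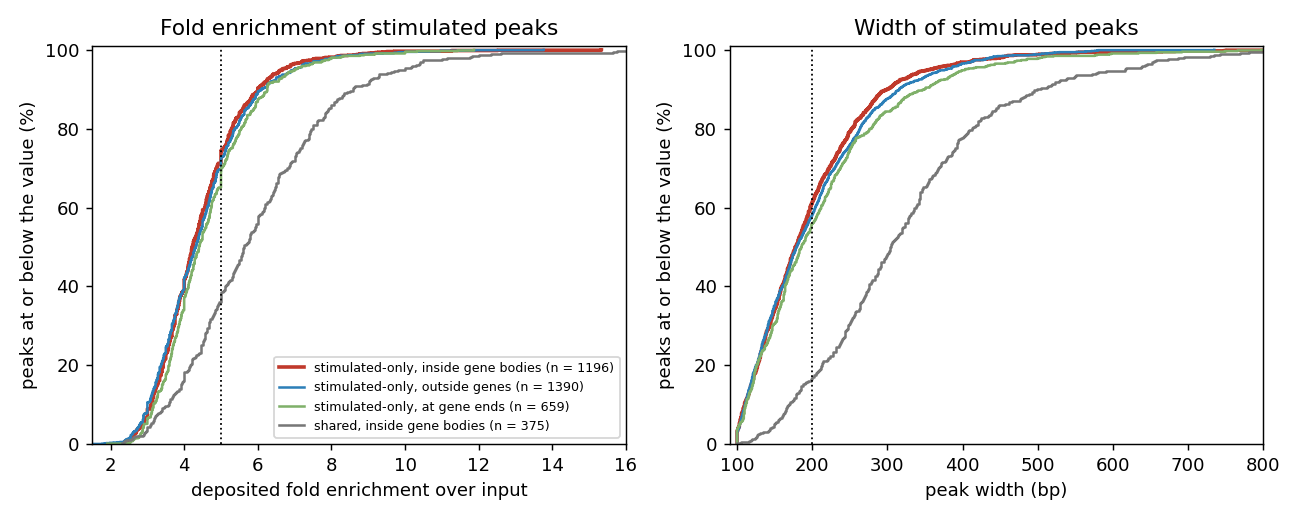
Cumulative share of peaks (y axis, percent) by deposited fold enrichment over input (left) and by width in bp (right) for 4 sets of stimulated peaks, with dotted lines at 5-fold and 200 bp. Both x axes stop short of the few highest values. The 3 stimulated-only sets run close together, with medians of 4.22 inside gene bodies, 4.31 outside genes and 4.4 at gene ends, and shared peaks inside gene bodies lie to the right with 5.63.

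Beside other stimulated-only peaks, the intragenic ones had similar medians. Peaks of at least 5-fold were 28.8% of the 1196 and 30.3% of the 1390 stimulated-only peaks outside genes (difference −1.53 percentage points, adjusted p = 0.412, two-sided Fisher's exact test, Benjamini-Hochberg over 4 comparisons). Widths of at least 200 bp were reached by 39.0% inside genes and 42.1% outside (difference −3.12 points, adjusted p = 0.145, Fisher's exact test). Neither difference passed, which does not show that the sets are alike. Against the 659 stimulated-only peaks at gene ends, 5-fold enrichment was less frequent inside gene bodies, 28.8% against 34.9% (difference −6.14 points, adjusted p = 0.0256, Fisher's exact test). The width shares were 39.0% inside gene bodies and 44.2% at gene ends (difference −5.19 points, adjusted p = 0.0600, Fisher's exact test). These tests compare peaks of 1 pooled list, not replicated samples, and the comparison with gene ends was added after the data were seen. Fold enrichment also follows the local background, whose median was 5.20 tags inside gene bodies and 4.60 at gene ends, while the median pileup was 26.5 and 24 tags. The enrichment difference was no longer called with gene ends taken as 2 kb (adjusted p = 0.200) or without peaks narrower than the tags (adjusted p = 0.119, Fisher's exact test).

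The 1196 peaks lay in 937 of 19304 protein-coding genes longer than 2 kb, the shortest that could hold one by these distances, which is 4.85%. A single gene body held 1183 of the peaks and 2 overlapping ones held 13. Longer genes held a peak more often: 0.674% of genes of 2 to 10 kb, 2.93% of 10 to 50 kb, 10.5% of 50 to 200 kb and 22.5% of those over 200 kb. Per length the shortest class had the most, with 1.99 gene and peak pairs per Mb of gene interior, followed by 1.45 and 1.47 in the middle classes and 0.808 in genes over 200 kb. The median peak lay 20.2 kb from the nearest gene end (interquartile range 6.78 to 50.9 kb) in a gene of 102 kb.

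**Figure D3:**
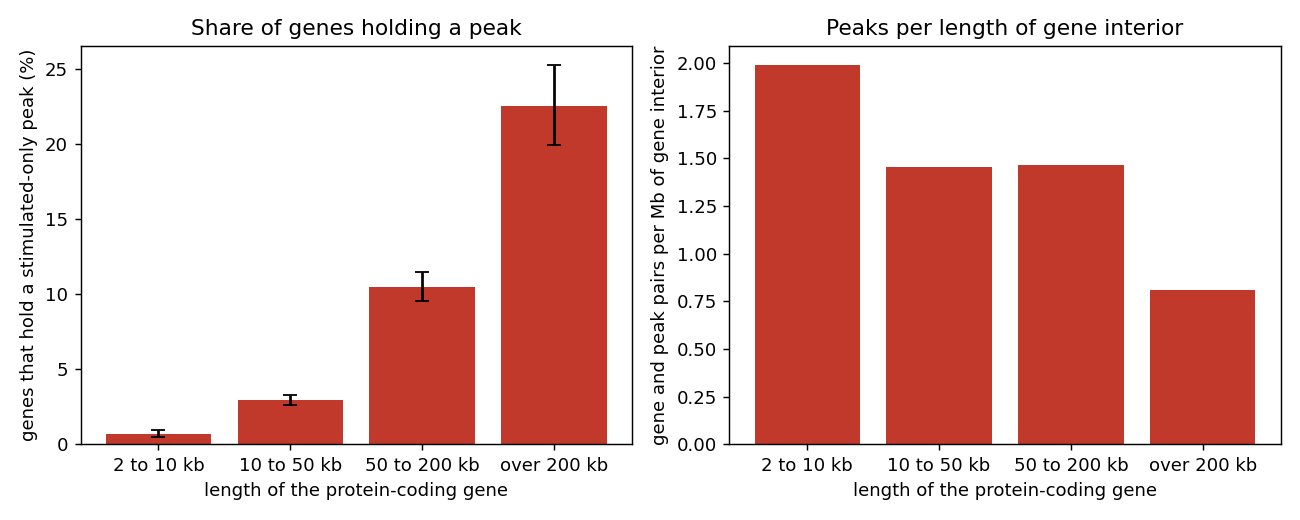
Share of protein-coding genes that hold a stimulated-only intragenic peak (left, percent, with exact binomial 95% intervals) and gene and peak pairs per Mb of gene interior (right), by gene length class. The share climbs with length to 22.5% of genes over 200 kb, and the density drops to 0.808 pairs per Mb there.

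Of the 937 genes, 742 held 1 peak, 144 held 2, 33 held 3, 12 held 4, 4 held 5 and 2 held 6. Septin9 and Frmd4a held 6 each. The 6 Septin9 peaks had fold enrichments between 3.47 and 4.44. The 4 at its far side, between positions 117307923 and 117317011 of chromosome 11, lay within a few kb of one another, and no shared summit lay in the gene. Frmd4a, which encodes a scaffold of cell polarity complexes, had values of 3.22 to 4.43 in a gene of 596 kb, with 2 shared summits in the same gene.

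Gse1, Pde4d, Ctif and Ddah1 held 5 each. In Gse1 3 of the 5 stood side by side around the internal start shown above, with fold enrichments of 5.25, 7.57 and 5.0 between 120535975 and 120539014 of chromosome 8. The last of them covered the 59 bases of the microRNA gene Mir7687, whose hairpin begins 2 bases from the summit. The hairpin next nearest to a summit was Mir6546, inside Fcgr3, 67 bases from a summit of fold enrichment 4.23. Capitals in the hairpin mark the SMAD box read on the DNA.
Mir7687 hairpin, chr8:120538696-120538754, plus strand: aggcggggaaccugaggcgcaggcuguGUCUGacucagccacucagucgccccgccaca

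Pde4d, which encodes a cAMP phosphodiesterase, had values of 3.76 to 6.26 over a gene of 1302 kb. Ctif, a translation factor gene, had 3.0 to 5.53. Ddah1, whose enzyme degrades an endogenous inhibitor of nitric oxide synthase, had 3.33 to 4.71, with 4 of its 5 peaks between 145876283 and 145892719 of chromosome 3. The next genes by this order held 4 peaks each. They were Itgb3 (3.10 to 7.5), which encodes an integrin subunit, the corepressor gene Bcor (3.75 to 6.57), the ETS factor gene Elk3 (4.18 to 6.39) and Nav2 (3.67 to 5.50), which encodes a cytoskeletal regulator. Septin9, Ddah1, Bcor, Elk3 and Nav2 held no shared summit at all, while Frmd4a, Gse1 and Itgb3 held 2 and Pde4d and Ctif 1. Neighbouring peaks may belong to 1 site or several, which was not tested.

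**Figure D4:**
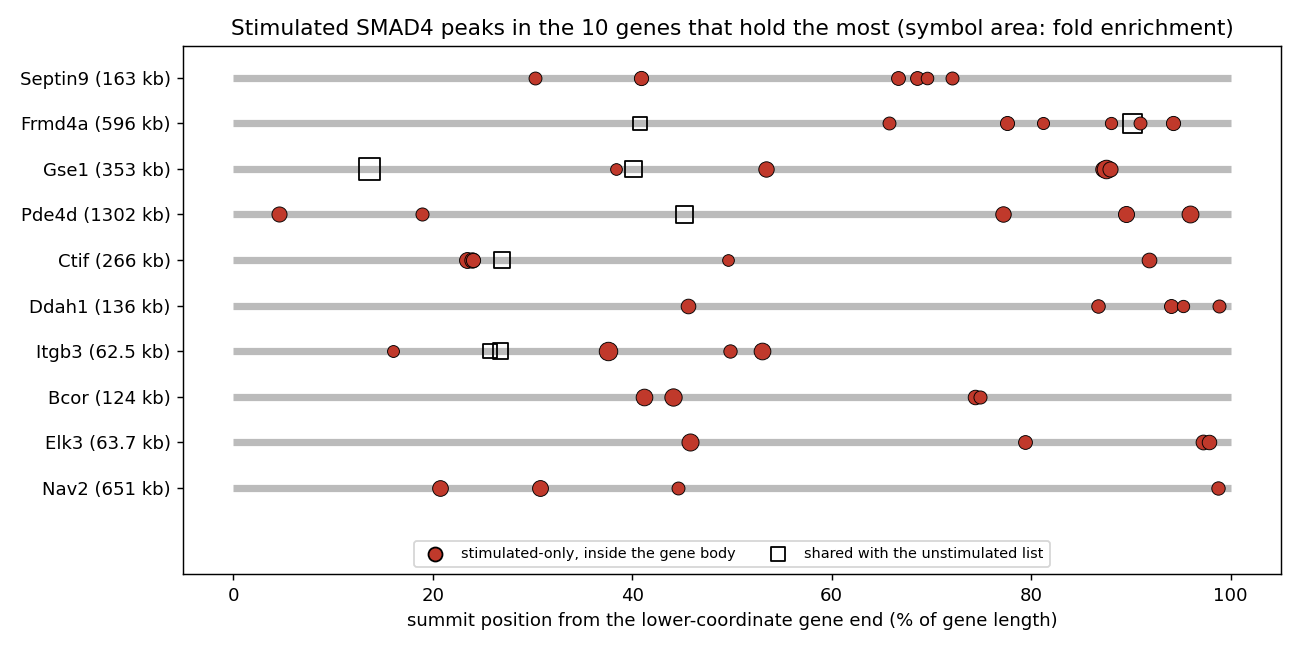
Summit positions along the 10 genes that hold the most stimulated-only intragenic peaks, in percent of gene length from the lower-coordinate end. Filled circles are stimulated-only peaks, open squares peaks shared with the unstimulated list, and symbol area grows with fold enrichment. Circles crowd together in Septin9, Gse1 and Ddah1 and are spread out in Nav2.

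The median distance from these peaks to the nearest unstimulated peak was 404 kb (interquartile range 77.4 to 1228 kb). An unstimulated peak lay within 10 kb of 99 of the 1196 (8.28%, 6.78 to 9.99) and within 100 kb of 331 (27.7%). The selection removed every peak that touched an unstimulated one, so these distances are partly set by it. Distances of random positions were not computed, so the values are not called near or far. Genes that also held a shared summit accounted for 227 of the 1196 peaks and 138 of the 937 genes. Another stimulated peak lay within 10 kb of 278 (23.2%) and another of the 1196 within 10 kb of 184 (15.4%). The stimulated list is the longer one, with 4324 nuclear peaks against 1130 in the unstimulated list. The part of list length in these shares was not tested.

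The genes of the BMP and TGF-beta pathway were read from lists made for the tissue and the ligand, with earlier results of these data known. Among receptors, ligands and SMADs, 5 of 26 genes over 2 kb held an intragenic peak found after stimulation only. The share was 10.5% of all genes of 50 to 200 kb, the class of the list's median gene of 61.4 kb. But 4 of the 5 came from the list's 14 genes longer than 50 kb, and 22.5% of all genes over 200 kb held a peak. Smad4 itself held 3, with fold enrichments of 6.57, 5.32 and 5.20 on chromosome 18, and its gene body also held shared summits. Smad3, the TGF-beta SMAD, had 1 of 6.33 from 37 tags (chromosome 9, 63706366 to 63706586), 51.5 kb from the gene end. The ligand gene Bmp4 had 6.29 (chromosome 14, 46388712 to 46388891), and Smad1, a BMP-activated SMAD, had 5.33. The median over the list's 7 peaks, 3 of them in Smad4, was 5.33, against 4.22 over all 1196. Bmpr2 had 4.60 and lay 1.26 kb from a gene end.

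Target genes of the pathway were counted in separate lists for BMP and TGF-beta. Of 17 BMP target and inhibitory SMAD genes over 2 kb, Gata2 and Smurf1 held such peaks. Gata2, which encodes a transcription factor of blood and endothelium, had 3 peaks with fold enrichments of 6.50, 5.80 and 4.21 between 88197368 and 88203330 of chromosome 6, and the second fell at the annotated start of the predicted gene Gm38708. Smurf1, which encodes a ubiquitin ligase for SMADs, had 3.24 from 54 tags, a tall pileup on a high local background. Of 18 TGF-beta target genes, 5 held a peak. The values were 5.10 in Tgfbi, which encodes a matrix protein, 5.0 in the SMAD corepressor gene Ski, 4.38 in both Ltbp2 and the collagen gene Col4a1, and 3.0 in the cell cycle inhibitor gene Cdkn1a. Gene bodies with a shared summit numbered 3 and 4 in these lists. In the length class of both lists' median genes, 10 to 50 kb, 2.93% of all genes held a stimulated-only intragenic peak. But 1 of the 2 BMP target genes with a peak came from that list's 3 genes longer than 50 kb. In the TGF-beta list 3 of the 5 came from its 5 genes of that length. Of all genes of 50 to 200 kb 10.5% held a peak.

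Of 23 endothelial identity genes over 2 kb, 9 (39.1%) held 20 of the 1196 peaks. The list's median gene is 33.1 kb long, in a class where 2.93% of all genes held a peak, but 7 of the 9 came from its 10 genes longer than 50 kb. Of all genes of 50 to 200 kb 10.5% held a peak, and of longer ones 22.5%. Vwf (9.70) was followed by Elk3 (6.39), Esam (6.04), an adhesion molecule of endothelial junctions, and Pecam1 (5.90), the CD31 gene, whose second peak had 2.73. The ETS factor genes Etv6 and Erg had 3 and 2 peaks of 5.0 to 5.82. Fli1, another ETS factor gene, had 2 peaks of 3.38 and 3.50, and Tcf4, which encodes an E-box-binding factor, had 4 of 2.38 to 5.20. The median fold enrichment over the 20 peaks was 5.06, against 4.22 over all 1196. The gene bodies of 3 of the 23 held a shared summit. Of the list's endothelial cell markers, Vwf, Pecam1 and Egfl7 held a stimulated-only intragenic peak, while Cdh5, Cldn5 and Emcn held none.

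The list of the VEGF and angiopoietin axis, which holds receptors, ligands and related genes, had a peak in 6 of 17 genes. Its median gene is 51.3 kb long, in a class where 10.5% of all genes held a peak. But 4 of the 6 came from the list's 9 genes longer than 50 kb, and 22.5% of all genes over 200 kb held a peak. After Ptprb (9.27) came the semaphorin and VEGF co-receptor gene Nrp1 with 5.71 from 23 tags (chromosome 8, 128437486 to 128437768). Flt4, the VEGF-C receptor gene, had 4.44, and Angpt2, the TIE2 antagonist gene that lies within Mcph1, had 4.13. The Kdr peak (4.10) lay 5.23 kb from another stimulated peak, and Tek, the TIE2 gene, had 2 (4.0 and 3.46). The median over these 7 peaks, 4.13, was close to that of all 1196.

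Notch pathway genes had 6 of 19 with a peak and 0 with a shared summit in the body. In the length class of the list's median gene, 2.93% of all genes held a stimulated-only intragenic peak. But 2 of the 6 came from the list's 6 genes longer than 50 kb. Of all genes of 50 to 200 kb 10.5% held a peak, and of longer ones 22.5%. Lfng, which encodes a glycosyltransferase that modifies Notch receptors, had 2 peaks less than 1 kb apart (5.80 from 46 tags and, over 751 bp, 5.51 from 53 tags). Maml2, a Notch coactivator gene, had 5.0 and the ligand gene Dll4 had 4.88. Notch1 had 4.59 and 3.57 in 2 peaks that lie 0.157 kb apart. The first of these lay 2.06 kb from an unstimulated peak, and its summit was 12.6 kb from the nearest gene end. An unstimulated call therefore lay in the Notch1 body too, although no stimulated peak there overlapped it. Of 20 flow response, Hippo and PI3K genes 6 held a stimulated-only intragenic peak, with all fold enrichments between 3.80 and 5.0. The class of that list's median gene is the one with 10.5%, and 5 of the 6 came from its 13 genes longer than 50 kb. The strongest were in Mtor (5.0), in Tead1, which encodes a partner of YAP (4.4), in the mechanosensitive channel gene Piezo1 (4.19) and in Amotl2 (4.0).

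Adhesion genes gave the highest share of the lists, 9 of 20 integrin, collagen and laminin genes (45%), but 17 of these genes are longer than 50 kb. All 9 came from those 17, and 10.5% of genes of 50 to 200 kb and 22.5% of longer ones held a peak. Itga6, the laminin receptor subunit gene, had 8.25 from 46 tags (chromosome 2, 71812290 to 71812527) and Itgb3 7.5 from 44 tags (chromosome 11, 104631355 to 104631746). Col4a2, a basement membrane collagen gene, had 6.42 and 3.23, and the vitronectin receptor subunit gene Itgav had 5.33. Guidance genes had 4 of 20, with the list's median gene in the class with 10.5%. Of the 4, 3 came from the list's 13 genes longer than 50 kb. Unc5b, the netrin receptor gene, had 5.0 and 4.71, followed by Epha4 (4.69), the arterial ligand gene Efnb2 (3.86) and Plxna2 (3.50). The ERK feedback list, in the class with 2.93%, had 1 of 10, the phosphatase gene Dusp4, with 6.96 and 5.77 at 2 peaks 0.474 kb apart.

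Lists of other cell types and of housekeeping genes were read in the same way. Housekeeping genes had 0 of 15, leukocyte markers 0 of 13, and hepatocyte and pancreatic markers 0 of 11. Mural cell and fibroblast markers had 1 of 16 (6.25%), Pdgfra (5.20), and neuron markers 1 of 14 (7.14%), Dlg2 (4.63). The leukocyte, hepatocyte and pancreatic, and mural lists have median lengths of 21.1, 10.0 and 35.3 kb, in the class where 2.93% of all genes held a peak. At such shares lists of this size would hold few or no such genes, so these counts are close to the background. The housekeeping genes are short, with a median of 5.4 kb, in a class where 0.674% of genes held a peak. Neuron markers are longer, with a median of 70.9 kb, in a class where 10.5% of genes held a peak. No list was tested, because its genes were chosen with earlier results known.

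**Figure D5:**
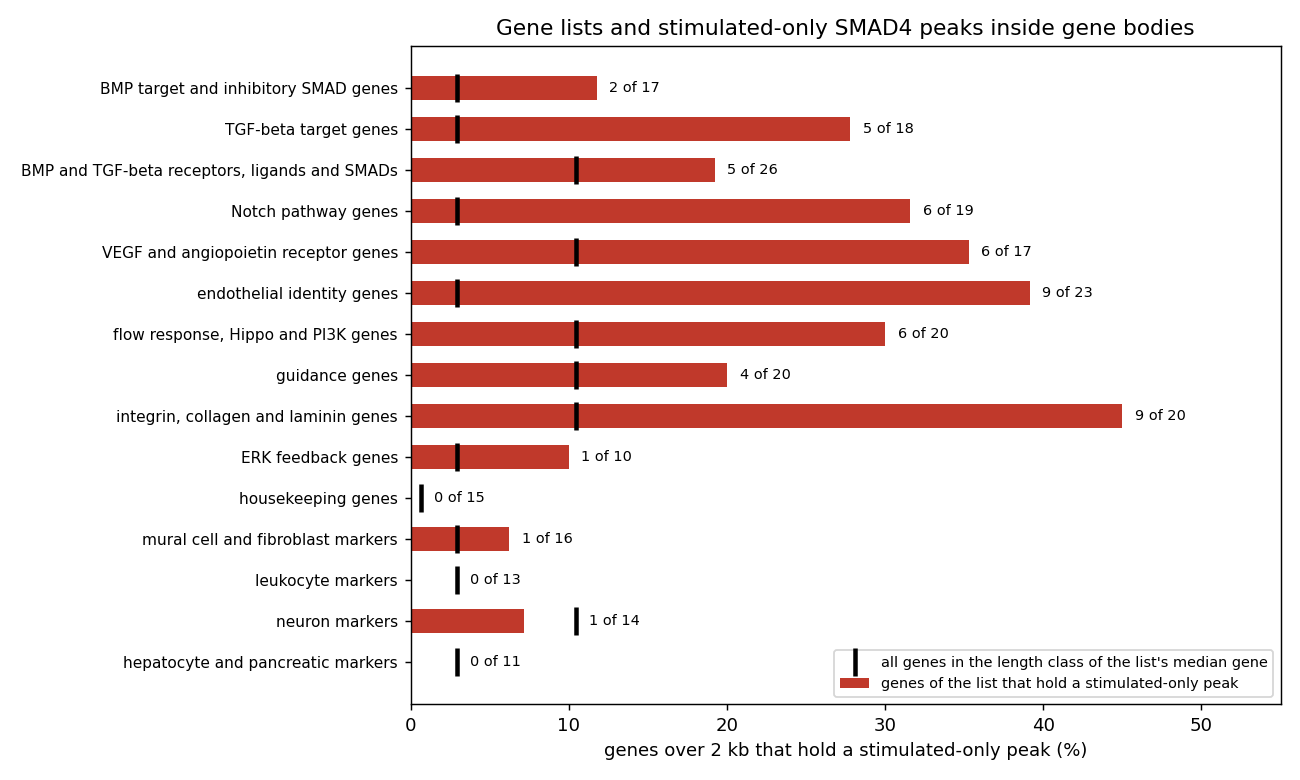
Percent of the genes over 2 kb of each list shown that hold a stimulated-only intragenic peak (bars, with counts), beside the percent over all genes in the length class of the list's median gene (vertical marks). A mark stands for the class of the median gene only, and longer genes of a list belong to classes with higher shares. Integrin, collagen and laminin genes reach 45% and endothelial identity genes 39.1%, and the lists of housekeeping genes and of other cell types hold at most 1 such gene each.

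Peaks near the limits of the selection were read 3 to a side, and differences between the sides were not tested. The 3 summits just past 1 kb from a gene end lay in Mideas (1014 bp, fold enrichment 4.4), Zfp335 (1018 bp, 5.0) and Snx13 (1033 bp, 4.44). Just short of it, inside genes, were stimulated-only summits in Dusp5 (984 bp, 5.12), Hhex (976 bp, 5.71) and Esco1 (973 bp, 4.17). Closest to an unstimulated peak without touching it were peaks in Extl3 (89 bp, 3.40), Slc24a4 (208 bp, 3.93) and Spaca6 (275 bp, 3.79). The shortest overlaps that kept a peak out were in Cdc42ep4 (7 bp, 3.29), Kel (43 bp, 5.31) and Slc39a11 (52 bp, 4.56).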

How the data were processed

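SMAD4 binding was measured by ChIP-seq in MS1 cells, and the authors deposited 1 peak list per condition, called with MACS 2.1.0.20140616 on merged libraries, per the file headers. They kept 1 tag per position, extended tags to 100 bp and used a q cutoff of 0.01, per the file headers. The larger of IP and input was sampled down to the smaller. The build was mm10, per the submitters' processing notes; no aligner is named in the sources used here. The deposited pileup is a coverage signal in tags, not scaled to depth. Fold enrichment, as deposited, is a ratio to local background, and the deposited −log10 p and q columns are from their Poisson test of IP over input. Tag and band width settings differed between the lists (140 and 146 bp, 200 and 300), per the file headers.

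For gene bodies the 21887 protein-coding genes of a RefSeq table (GRCm38.p6) were used, and start windows and microRNAs from RefSeq tables of the same build. These hold a start for the genes of 959 of the 1196 peaks, so counts at internal starts are lower bounds. The planned motif tests around summits were not run, since no genome was used here. Positions are 1-based. The selection was applied in Python 3.11.15 and gave the same 1196 peaks with bedtools 2.31.1. On simulated data all 600 planted peaks were placed and overlapped correctly. Shares were compared with two-sided Fisher's exact tests (scipy 1.17.1), adjusted by Benjamini-Hochberg over 4 comparisons and called at 0.05. The regions and gene lists were chosen with earlier results of these data known. Named were the 15 strongest peaks, the 10 genes with most, up to 4 genes per list and the peaks at the limits of the selection. A peak and a list are not reported here. Others (further genes of a list and the genes at internal starts or microRNAs) were chosen after their values were seen.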

Additional observations from a re-analysis of the deposited data

How the results depend on the processing

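The number of stimulated-only intragenic peaks was 1196 and ranged from 957 to 1187 when gene ends were taken as 2 or 5 kb, the whole peak was placed, predicted genes were left out or an unstimulated peak within 1 kb of the summit counted as shared. It was 854 without peaks narrower than the tags, a setting chosen after seeing the data. A −log10 q of at least 5 left 796 peaks, and shortening the stimulated list to the length of the unstimulated one left 137. Both settings can only lower the number, but the size of the drop is not set by construction. The shortened list kept the 1133 most significant of 4333 peaks, and stimulated-only peaks of all places fell from 3245 to 406. Most of the 1196 thus ranked below that cut. Genes holding a peak numbered 937, 662 at a −log10 q of at least 5 and 926 without predicted genes. At that q the guidance list had 2 genes with a peak, and the other 15 lists moved by at most 1.5 times. Against peaks outside genes, the 5-fold difference of −1.53 points turned to 1.03 without narrow peaks (adjusted p = 0.653, Fisher's exact test) and kept its sign elsewhere. Against gene ends it was −4.26 points with 2 kb (adjusted p = 0.200) and −5.42 without narrow peaks (adjusted p = 0.119, Fisher's exact test). In the other settings the 5-fold difference against gene ends was still called. The width difference against gene ends was −8.28 points and called at the stricter q (adjusted p = 0.0117, Fisher's exact test). The cause was not tested. No paired analysis was possible because the libraries of each condition were merged before peaks were called, and for the same reason no library could be left out. The motif tests around summits and their window alternatives were not run.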
